A study of Mus musculus with 14 samples.

Results

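The clustered histone genes encode the replication-dependent histones of mouse chromatin. Members were the non-control array probes whose gene name in the array design begins with Hist1h, Hist2h, Hist3h or Hist4h. There were 57 such probes for 49 gene names, out of 55681 probes under 34821 gene names. By histone type, 6 probes stood for H1 genes, 16 for H2A, 13 for H2B, 8 for H3 and 14 for H4. The array design placed 40 of them on chromosome 13, 10 on chromosome 3, 3 on chromosome 11 and 2 on chromosome 6 of genome build mm9, and 2 had no position.

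RNA came from peritoneal B-1a cells, the CD5-bearing innate-like B cells of the body cavities, of Bmi1 KO mice (7 arrays) and of wild-type (WT) mice (7 arrays). Bmi1 belongs to Polycomb repressive complex 1, which places ubiquitin on histone H2A and represses genes. One-colour mouse expression arrays were used, 1 per sample. Numbering styles of the sample titles gave set 1, with 3 arrays per genotype, and set 2, with 4. The labels give no strain, age, sex or deleted exon, and do not say whether the deletion was in every cell of the mouse. They leave unsaid whether each array stands for a different mouse. P-values therefore reflect only how these samples varied, possibly for technical reasons, and the precision is limited by how many arrays there were.

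H2A, H2B, H3 and H4 form the core of the nucleosome and H1 binds the linker DNA between nucleosomes. Most genes of the clusters lack introns and are transcribed in S phase, and their mRNAs end in a conserved stem-loop in place of a poly(A) tail. That stem-loop is bound by Slbp, the stem-loop binding protein, and the mRNA is cut just past it. Some members are also known to give polyadenylated transcripts in cells that do not divide. Whether the labelling of these samples was primed on poly(A) is not stated by the labels, and neither is the share of dividing cells. Fewer cells that express a gene and less of its RNA per cell cannot be told apart in such bulk samples.

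A level is log2 of a probe's processed signal minus the array's 75th percentile, so 0 means a signal at that percentile. The share of all probes well above background ran from 20.6% to 56.7% on the KO arrays and from 43.5% to 63.3% on the WT arrays. It was under 40% on 4 arrays, called the dim KO arrays here, which were KO set 1 replicate 4 and KO set 2 replicates 1, 2 and 3. Histone probes well above background numbered 16 to 34 per KO array (23.1 ± 6.77, SD, n = 7) and 22 to 38 per WT array (29.6 ± 6.58, SD, n = 7), so the ranges overlapped. Within groups, pairs of arrays correlated between 0.60 and 0.93. The probe for Bmi1 itself did not separate the genotypes. Its signal, as a multiple of the 75th percentile, was 0.338 to 13.8 on the KO arrays and 0.115 to 4.26 on the WT arrays (KO minus WT 1.09 on the log2 scale, adjusted p = 0.548). Whether this probe lies in the deleted part is not given, so KO and WT below are the labels' words. B cell markers were measured for 6 of 6 genes, with a summed signal of 290.2 to 6295 times the percentile on KO arrays and 217 to 817 times on WT arrays. Cd5 was well above background on 3 KO and 6 WT arrays.

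Sequences of 5 H2A probes are shown first because copies of the core histone genes are nearly identical, and one probe can then read several genes. In build mm9 the Hist1h2af probe lies at chr13:23626113-23626172 (plus strand), Hist1h2ah at chr13:22127035-22127094 (minus), Hist1h2ak at chr13:21845304-21845363 (minus), Hist2h2aa2 at chr3:96043781-96043840 (minus) and Hist2h2ac at chr3:96024378-96024437 (minus). Capitals mark the run of 29 bases that is the same in all 5.
Hist1h2af: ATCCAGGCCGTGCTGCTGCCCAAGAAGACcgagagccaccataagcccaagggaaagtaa
Hist1h2ah: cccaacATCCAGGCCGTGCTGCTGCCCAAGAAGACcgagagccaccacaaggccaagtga
Hist1h2ak: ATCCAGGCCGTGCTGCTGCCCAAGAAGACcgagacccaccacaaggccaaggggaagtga
Hist2h2aa2: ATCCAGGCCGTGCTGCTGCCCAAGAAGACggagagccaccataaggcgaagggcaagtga
Hist2h2ac: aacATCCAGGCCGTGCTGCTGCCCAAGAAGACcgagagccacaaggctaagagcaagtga

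Together with Hist1h2ag and Hist1h2an these made 7 H2A probes that each shared at least 20 identical bases with another of them. A probe for H2afj, a replication-independent H2A variant, shared such a stretch with 5 of the 7. Over all members, 19 of 57 shared at least 20 bases with another probe of the array, and the accessions of 15 probes named more than 1 gene, up to 4. The array file lists at most 4 accessions per probe, so that number is a lower limit. A level below is therefore that of a probe, and its share between gene copies was not measured.

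The stem-loop itself lay inside 6 members. It was searched as a 6-base stem that starts with GG, any 4-base loop and a perfectly paired second strand of the stem. Each probe was read in its sense orientation and counted once. This structure was found in 44 of the 55681 probes of the array (0.0790%). It is printed with up to 5 bases on each side, the stem-loop in capitals, because the stretch marks where the mature mRNA of these genes ends. The probes lie on build mm9 at chr3:96043669-96043728 (Hist2h2aa2, minus strand), chr3:96074056-96074115 (Hist2h2bb, plus), chr13:23853756-23853815 (Hist1h3a, minus), chr13:23627719-23627778 (Hist1h3g, plus), chr13:21874784-21874843 (Hist1h3i, minus) and chr13:21903960-21904019 (Hist1h4m, plus).
Hist2h2aa2: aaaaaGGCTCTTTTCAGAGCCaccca
Hist2h2bb: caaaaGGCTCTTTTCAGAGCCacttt
Hist1h3a: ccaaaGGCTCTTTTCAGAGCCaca
Hist1h3g: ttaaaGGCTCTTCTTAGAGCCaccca
Hist1h3i: caaaaGGCTCTTTTCAGAGCCccctc
Hist1h4m: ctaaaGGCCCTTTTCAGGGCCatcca

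Signal at these stem-loop probes was mostly at background. They were well above background in 14 of 84 probe-by-array readings, 8 of which came from the Hist2h2aa2 probe, on 4 KO and 4 WT arrays. The Hist1h4m probe was not well above background on any array, and the other four were so on 1 to 3 arrays each. Another 2 probes, for Hist1h2ab and Hist1h2ae, held 11 and 12 bases of a stem-loop at one end and were each well above background on 1 WT array. Of these 8 probes 1 was kept for testing, and of the other 49 members 30 were kept. Probes differ in how strongly they bind, so these counts describe the probes and are not RNA levels.

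A pair of H4 probes shows how far copies diverge where a probe reads the body of the gene. They cover the same 60 bases of their transcripts, at chr13:23790223-23790282 (Hist1h4c, minus strand) and chr13:21842279-21842338 (Hist1h4k, minus strand). Capitals mark the 8 bases at which they differ.
Hist1h4c: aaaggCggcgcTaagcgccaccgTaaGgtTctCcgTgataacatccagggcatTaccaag
Hist1h4k: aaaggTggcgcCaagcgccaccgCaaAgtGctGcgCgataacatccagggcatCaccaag
The Hist1h4c probe was well above background on 0 KO arrays and 1 WT array, and this Hist1h4k probe on 1 array of each genotype. Both stayed out of the test.

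Of the 57 members, 31 (54.4%) cleared background on 4 or more of 7 KO arrays or of 7 WT arrays and were kept for the test, against 53.3% of all probes. Of the 31, 9 were kept through 1 genotype alone. Those kept were 5 of 6 for H1, 10 of 16 for H2A, 6 of 13 for H2B, 3 of 8 for H3 and 7 of 14 for H4. Well above background on all 14 arrays were 12 members, of which 7 were H2A probes, 2 H3, 2 H4, 1 H1 and 0 H2B. On none of the arrays were 6 members above background, for Hist1h1d, Hist1h2ac, Hist2h2ab, Hist1h2bp, Hist3h2ba and Hist1h4m.

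**Figure D1:**
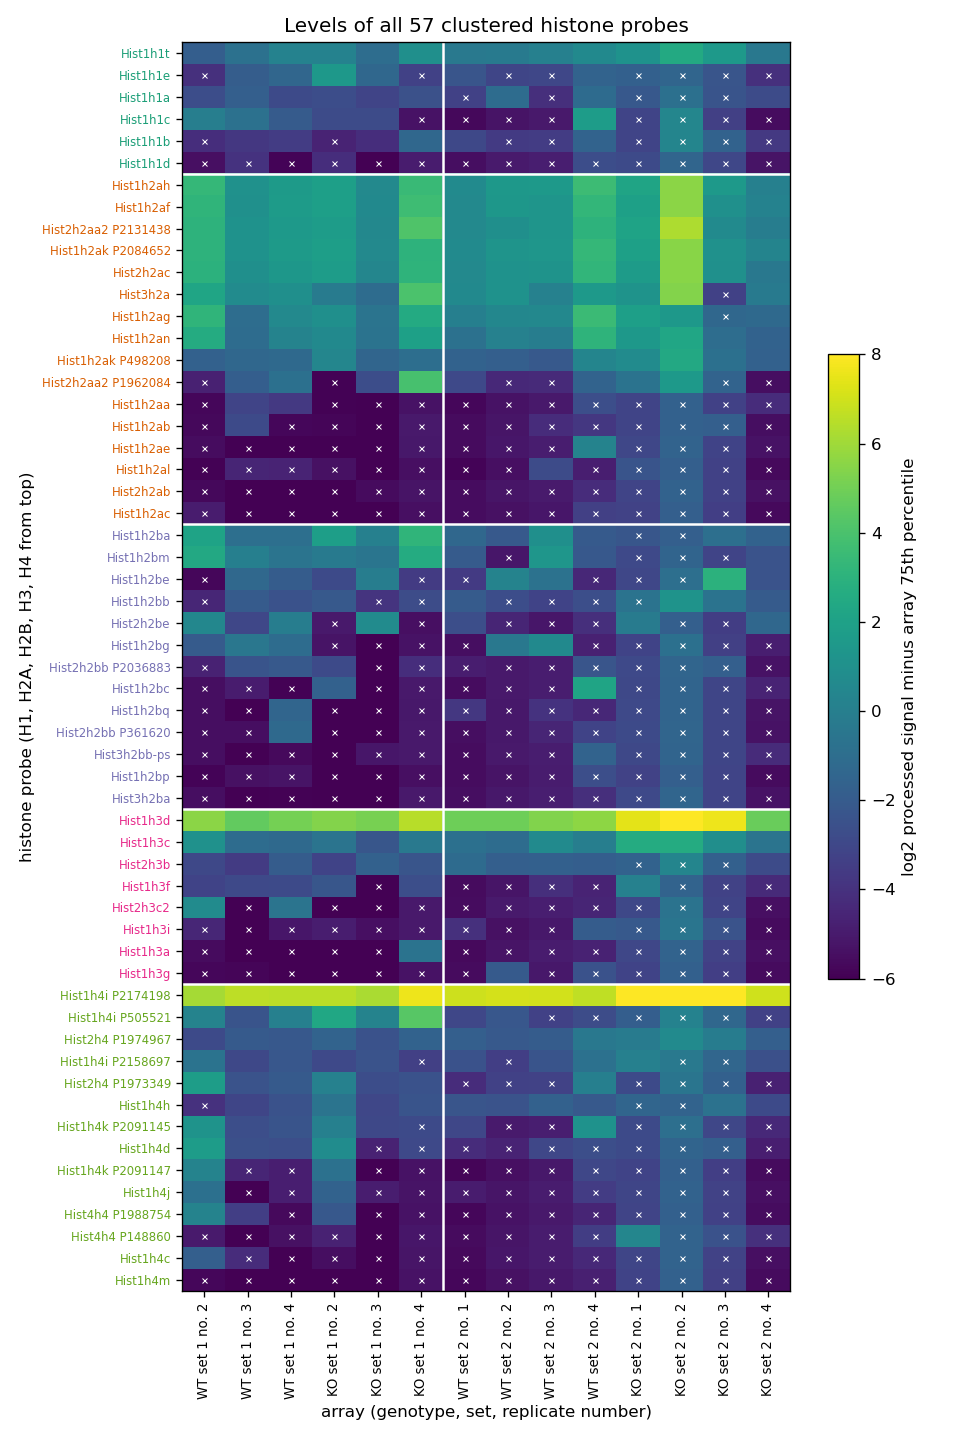
Level of each of the 57 histone probes (rows, ordered within H1, H2A, H2B, H3 and H4 by mean level; names coloured by type) on each of the 14 arrays (columns, set 1 left of the white line), in log2 processed signal minus the array's 75th percentile. Crosses mark readings not well above background; 12 rows carry no cross and 6 rows carry one on every array.

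No histone probe passed the test between genotypes. The question asked by the comparison is which transcripts differ in B-1a cells without Bmi1. With limma, 0 of the 31 kept histone probes reached an adjusted p under 0.05, the smallest being 0.332. Over all 29687 kept probes, 0.00337% were called higher in KO and 0.0269% lower. At an unadjusted p under 0.05, 2 histone probes were higher and 1 was lower in KO, where 8.18% of all kept probes were higher and 5.38% lower at that level. With arrays scaled to probes well above background on all 14 arrays, those numbers were 0 higher and 5 lower of the 31, where 0.704% of all kept probes were higher and 20% lower. The groups overlapped at every kept histone probe, while 0.128% of all kept probes had every KO array above every WT array and 0.128% every KO array below.

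Differences are best read against the whole array, because the median of all kept probes was itself 0.32 higher in KO on the log2 scale. That median was -1.02 with arrays scaled to probes well above background on all 14 arrays and -0.16 after quantile normalization. The median over the 31 histone probes was 0.38, which is 0.06 above that of all probes, and 17 of the 31 lay above it. By type, the median difference relative to all probes was 0.33 for H1, -0.05 for H2A, 0.06 for H2B, 0.36 for H3 and 0.46 for H4. The spread of such a type median between arrays of 1 genotype and set was larger in each case, with SDs of 0.75, 1.48, 0.96, 0.64 and 0.89. Without the 4 dim KO arrays the medians were -0.32 for H1, -1.06 for H2A, 0.40 for H2B, -0.13 for H3 and 0.10 for H4, and -0.56 for all histone probes.

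**Figure D2:**
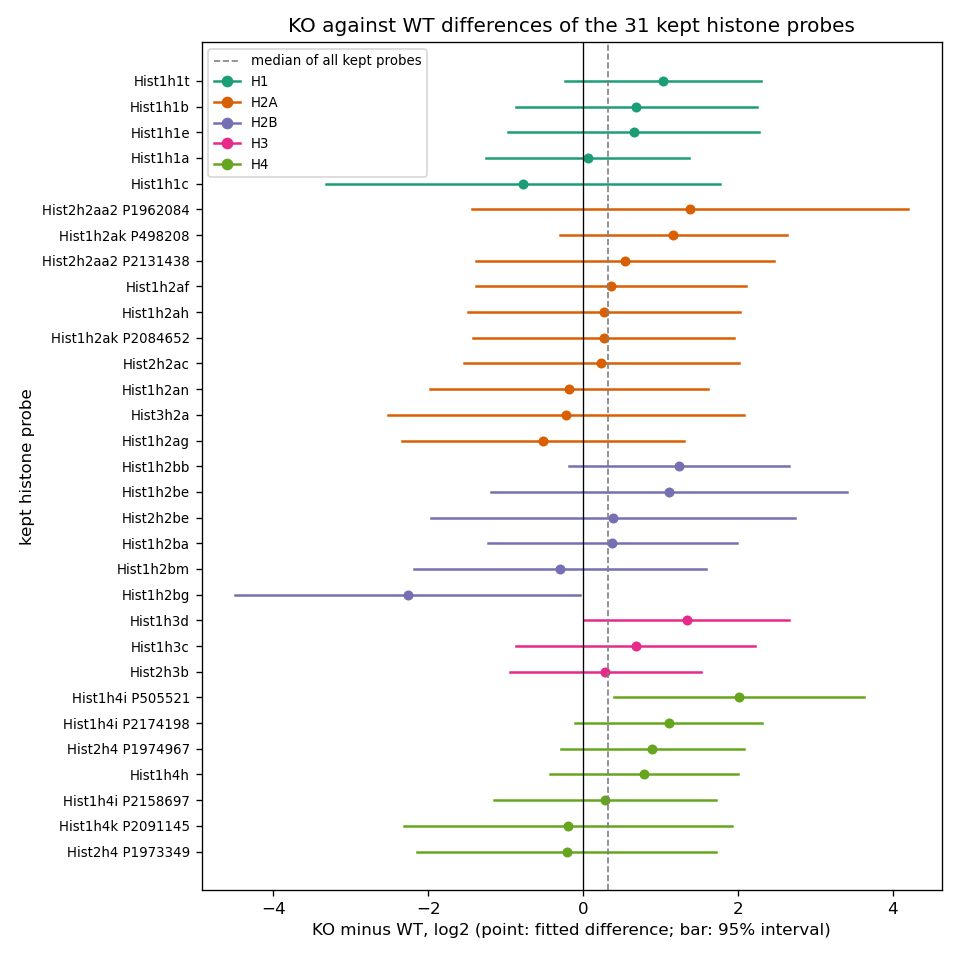
KO minus WT difference (horizontal axis, log2) of the 31 kept histone probes (rows, coloured by histone type), each point a fitted difference and each bar its 95% interval; the dashed line is the median of all kept probes at 0.32. The intervals of 28 probes include 0, and those of Hist1h4i (probe P505521), Hist1h3d and Hist1h2bg, whose KO readings were all at background, do not.

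Among H1 genes, which encode the linker histones, Hist1h1t was the one measured on all 14 arrays. It encodes the testis form of H1. Its level ran from -0.98 through a median of 0.97 to 2.52 on the KO arrays and from -1.82 through -0.23 to 0.64 on the WT arrays, and the groups overlapped (KO minus WT 1.03, SE 0.60, adjusted p = 0.408). The 4 highest of its 14 values were those of the 4 dim KO arrays, at 0.97, 1.14, 2.52 and 1.52, and without them the difference relative to all probes was 0.20 in place of 0.71. For the somatic linker histones, differences relative to all probes were -1.10 for Hist1h1c, -0.26 for Hist1h1a, 0.33 for Hist1h1e and 0.37 for Hist1h1b. The Hist1h1c, Hist1h1e and Hist1h1b probes were each well above background on 2 KO and 4 WT arrays and were kept through WT alone. For Hist1h1c the interval ran from -3.32 to 1.77. The H1 median of 0.33 is the value of Hist1h1e, so it rests in part on background readings. No H1 probe came under an unadjusted p of 0.05.

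The H2A probes that share sequence moved together from array to array, in both genotypes. On 12 of 14 arrays all 7 lay on the same side of their own 14-array means. Per array, their median deviation from those means ran from -2.0 on KO set 2 replicate 4 to 3.58 on KO set 2 replicate 2, while the range over the 7 probes within an array had a median of 0.82. Within WT, their deviation was highest on set 2 replicate 4 (1.44) and set 1 replicate 2 (1.23) and lowest on set 2 replicate 1 (-1.28). The high and low arrays thus came from both genotypes and both sets. Such movement was not limited to these probes. The median deviation of all 31 kept histone probes, these 7 included, was also highest on KO set 2 replicate 2 (2.32) and lowest on KO set 2 replicate 4 (-1.22). For all kept probes of the array it was 1.12 and -0.20 on those arrays. The part of shared sequence in the movement was not tested. The 7 probes share target sequence and the same RNA, so they are not independent readings.

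**Figure D3:**
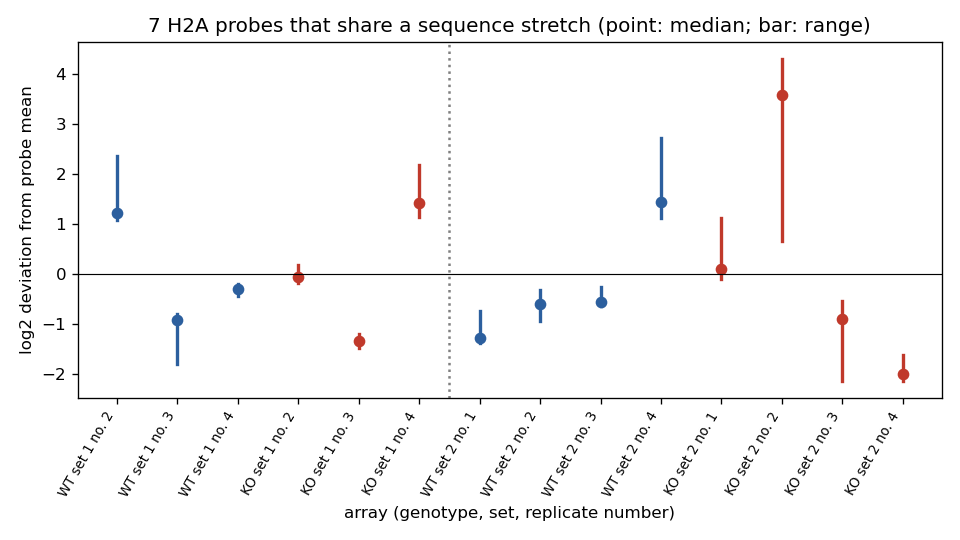
Deviation from each probe's own mean (vertical axis, log2) of the 7 H2A probes that share a stretch of sequence, on each of the 14 arrays (horizontal axis; WT blue, KO red; set 2 right of the dotted line). Points are medians over the 7 probes and bars their range. The medians run from -2.0 to 3.58, and the range within an array has a median of 0.82 and is widest on KO set 2 replicate 2 (3.65).

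The Hist1h2ah probe, which lists transcripts of 4 H2A genes, is given as an example of the 7. Not all of them followed it closely: on KO set 2 replicate 2 it read 5.57, where Hist1h2ag read 1.47 and Hist1h2an 2.28. The Hist1h2ah level on the KO arrays ran from 0.09 through 1.89 to 5.57 and on the WT arrays from 0.67 through 1.56 to 3.61. KO arrays held both the lowest and the highest value, and the WT range lay inside (KO minus WT 0.27, SE 0.83, adjusted p = 0.890). Relative to all probes, the differences of the 7 ran from -0.84 for Hist1h2ag to 0.22 for Hist2h2aa2. The H2afj probe differed by 0.21 on the same scale (adjusted p = 0.795). The largest positive differences among H2A probes were outside these 7. The stem-loop probe of Hist2h2aa2 differed by 1.06 relative to all probes with an SE of 1.33, and by -1.88 without the 4 dim KO arrays. A second Hist1h2ak probe, measured on all 14 arrays, differed by 0.84 with an SE of 0.69. Hist3h2a, in the small cluster on chromosome 11, ran from -3.28 through -0.18 to 5.41 on the KO arrays and from 0.14 through 1.0 to 2.21 on the WT arrays, so KO was the more spread genotype.

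Among H2B genes, the Hist1h2bg probe was the one member with a lower KO level at an unadjusted p under 0.05. It was not well above background on any KO array and was so on 5 of 7 WT arrays. On the KO arrays it read from -6.57 through -4.85 to -0.82 and on the WT arrays from -5.47 through -1.07 to 0.64. The 3 WT arrays of set 1 read -2.0, -0.44 and -1.07, where the KO arrays of set 1 read -5.28, -6.57 and -5.32. In set 2 the genotypes overlapped, with 2 WT arrays at -5.47 and -4.73. KO had background readings only, and the probe was kept through WT alone, a filter that favours a lower KO value. The size of the difference is therefore not known (measured means -4.19 and -1.93). With each KO reading raised to at least its array's lowest signal well above background, KO was 1.36-fold lower in these samples. Those 2 low WT readings were not well above background and are part of the WT mean, so 1.36-fold is not a lower limit. The difference did not pass the test (adjusted p = 0.368 by limma). Exact permutation of genotype within sets gave p = 0.084.

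The remaining kept H2B probes spread to both sides. Relative to all probes, Hist1h2bb differed by 0.92 (SE 0.67), Hist1h2be by 0.79 (SE 1.09), Hist2h2be by 0.07 (SE 1.11), the testis gene Hist1h2ba by 0.06 (SE 0.76) and Hist1h2bm by -0.62 (SE 0.89). The Hist1h2bm probe lists transcripts of 4 H2B genes and was well above background on 4 KO and 6 WT arrays. None of these came under an unadjusted p of 0.05.

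Among H3 genes, Hist1h3d had the difference with the smallest p. Its probe, at chr13:23667979-23668038 (build mm9, plus strand), lists transcripts of 4 H3 genes, now named H3c2, H3c4, H3c6 and H3c11, and is shown because those copies cannot be told apart by it.
Hist1h3d: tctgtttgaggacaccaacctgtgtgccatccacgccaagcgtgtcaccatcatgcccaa
It was well above background on all 14 arrays. KO levels ran from 4.81 through 6.52 to 8.55 and WT levels from 4.66 through 5.07 to 5.64 (6.49 ± 1.43 against 5.16 ± 0.36, SD, n = 7 each). The 4 highest of the 14 values were those of the 4 dim KO arrays, at 6.52, 7.41, 8.55 and 7.64. The other 3 KO arrays, at 5.38, 5.15 and 4.81, lay inside the WT range. The difference was 1.34 (SE 0.63, 95% interval 0.01 to 2.66, adjusted p = 0.368), or 1.02 relative to all probes. Without the 4 dim KO arrays it was 0.06 relative to all probes, and 0.17 after quantile normalization.

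The other kept H3 probes, for Hist1h3c and Hist2h3b, differed by 0.36 and -0.03 relative to all probes (SE 0.73 and 0.58). Hist1h3c was well above background on all 14 arrays, between -2.23 and 2.62 on KO and between -1.21 and 1.06 on WT. The 5 H3 probes left out include the 3 that hold the stem-loop.

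Among H4 genes, Hist1h4i had 3 probes that did not give one answer. The probe at chr13:22132591-22132650 (build mm9, minus strand; P505521), for which the array design lists no RefSeq transcript, differed by 2.01 between genotypes (SE 0.76, 95% interval 0.39 to 3.63, adjusted p = 0.332). Its KO levels ran from -3.28 through 0.22 to 4.34 and its WT levels from -3.32 through -2.38 to 0.27. In set 1 the KO arrays read 2.32, 0.27 and 4.34 and the WT arrays 0.27, -2.38 and 0.08. In set 2 no KO array and 2 of 4 WT arrays were well above background. The second probe, at chr13:22133139-22133198 (minus strand; P2158697) and near the start of its listed transcript, differed by -0.03 relative to all probes (SE 0.68), against 1.69 for the first.

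The third Hist1h4i probe (P2174198) has no position in the array design. KO levels ran from 6.21 through 7.67 to 9.90 and WT levels from 6.10 through 6.64 to 7.08. The 4 dim KO arrays again held the 4 highest of 14 values, at 7.67, 8.70, 9.90 and 8.71, and the other 3 KO arrays lay inside the WT range. The difference was 1.10 (SE 0.57, adjusted p = 0.380), or 0.79 relative to all probes, and it was 0.10 relative to all probes without the dim KO arrays. The probe ends in a run of 6 A. It shares the stretch below with the array's Galns probe in the same orientation and with its Slc10a1 probe in the opposite one, genes that encode no histone, so this stretch is not particular to the histone gene. Whether the signal of this probe came from Hist1h4i RNA was not tested. It is counted with the H4 probes throughout by its name alone.
Hist1h4i: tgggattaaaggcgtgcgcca

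Of the other H4 probes, Hist1h4h differed by 0.46 relative to all probes (SE 0.58) and a Hist1h4k probe that lists 4 H4 genes by -0.52 (SE 1.0). The 2 probes for Hist2h4 differed by 0.57 (SE 0.56; well above background on all 14 arrays) and -0.53 (SE 0.91; 3 KO and 4 WT arrays). Both Hist4h4 probes, on chromosome 6, were well above background on 1 or 2 arrays in a genotype at most and were not tested.

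**Figure D4:**
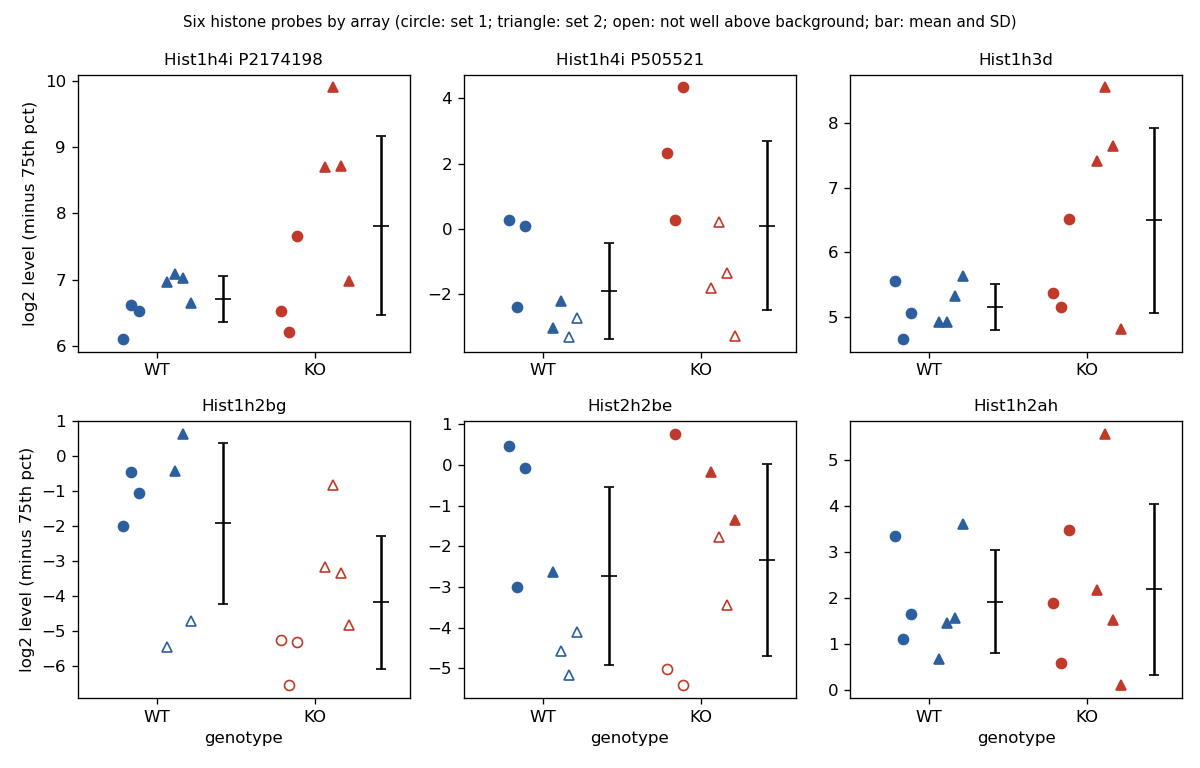
Level (vertical axes, log2 processed signal minus the array's 75th percentile) of 6 histone probes on each WT (blue) and KO (red) array; circles are set 1, triangles set 2, open symbols are not well above background, and bars give the mean and SD over 7 arrays. For Hist1h4i P2174198 and Hist1h3d the 4 highest arrays are the 4 dim KO arrays; Hist1h2bg has open symbols on every KO array.

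Spread within a genotype was wider in KO for most members. The SD over the 7 arrays was larger in KO than in WT for 23 of 31 histone probes (74.2%), against 84.8% of all kept probes. The 4 dim KO arrays held the 4 highest values for 3 of 31 histone probes (9.68%), against 6.87% of all kept probes. The median SD was 1.78 in KO and 1.03 in WT for histone probes and 1.89 and 1.10 for all kept probes.

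Within set 1, 0 histone probes were called by limma, against 0.0236% of all kept probes. At an unadjusted p under 0.05, 1 histone probe was higher, Hist1h4i P505521, and 1 was lower, Hist1h2bg, where 1.20% of all kept probes were higher and 6.59% lower. Within set 2, 0 were called, against 0.0135%, and 3 were higher at an unadjusted p under 0.05, namely Hist1h2bb, Hist1h3d and Hist1h4i P2174198, with 0 lower, where the shares over all probes were 10.4% and 2.78%. Each of these sets was fitted with the spread of all 14 arrays.

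By type, the median difference relative to all probes in set 1 and set 2 was 0.46 and -0.04 for H1, 0.07 and -0.18 for H2A, 0.06 and -0.30 for H2B, 0.47 and 0.98 for H3, and 0.43 and 0.49 for H4. Set 1 lay on 1 slide. Set 2 lay on 2 slides, one with 4 KO and 2 WT arrays and one with the other 2 WT arrays. Within the slide of set 2 that held both genotypes, the medians were 0.57 for H1, 0.45 for H2A, -0.38 for H2B, 0.70 for H3 and 0.62 for H4. H1 and H2A thus changed sign between the whole of set 2 and that slide, with 2 WT arrays behind the second value.

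For the difference of the genotype effect between sets, 0% of all kept probes were called by limma and 5.37% came under an unadjusted p of 0.05, with 1 of the 31 histone probes among them. This was Hist2h2be, an H2B gene of the chromosome 3 cluster. In set 1 its KO arrays read -5.02, 0.76 and -5.42 and its WT arrays 0.46, -3.01 and -0.07. In set 2 its KO arrays read -0.16, -1.77, -3.44 and -1.34 and its WT arrays -2.62, -4.58, -5.17 and -4.11. Its probe was well above background on only 3 KO and 4 WT arrays. Not well above background were the KO readings -5.02 and -5.42 in set 1 and -1.77 and -3.44 in set 2. The same held for the WT readings -4.58, -5.17 and -4.11 in set 2. As measured, KO was lower on average in set 1 (-2.35) and higher in set 2 (2.44). The difference of 4.80 had an unadjusted p of 0.028 and an adjusted p of 0.876 by limma. Its size rests in part on background readings. Next by p were Hist1h2bg (at background on every KO array, so no size is given), Hist1h3c (-0.67 and 1.68) and Hist1h4i P2158697 (-0.94 and 1.20), each with an adjusted p of 0.876.

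**Figure D5:**
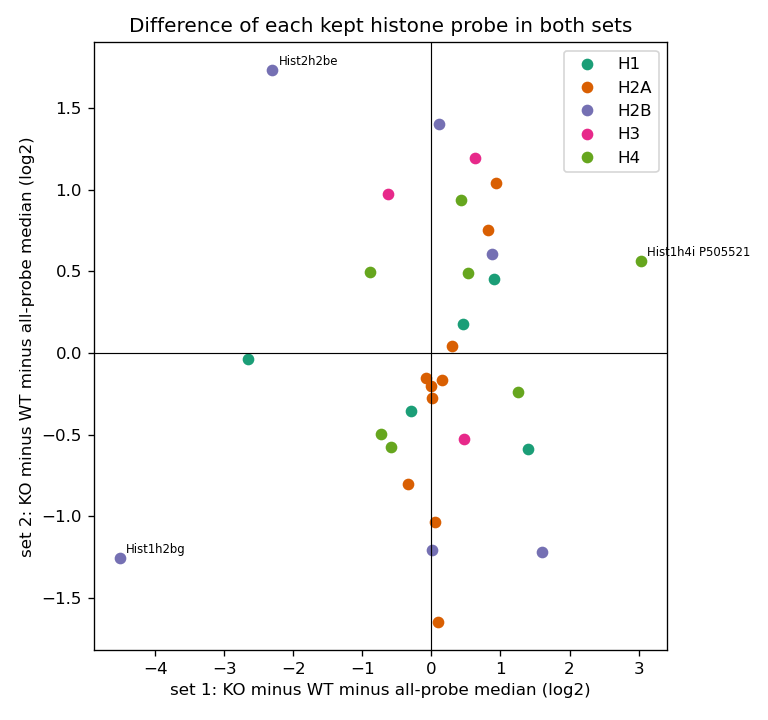
KO minus WT difference relative to the median of all kept probes (log2) in set 1 (horizontal axis) and set 2 (vertical axis) for the 31 kept histone probes, coloured by histone type. Hist2h2be lies at -2.31 and 1.73, Hist1h4i P505521 at 3.03 and 0.57 and Hist1h1c at -2.66 and -0.04. Hist1h2bg is plotted at -4.51 and -1.26, but its KO readings were all at background, so these are not measured sizes.

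Genes that act on histone mRNA and histone proteins were read from lists, with 1 probe per gene. Differences of list genes are relative to all probes, and each SE and p belongs to the KO minus WT difference before that subtraction. Of 17 genes for processing of histone mRNA, 14 were measured and 0 passed an adjusted p of 0.05 by limma. At an unadjusted p under 0.05, 3 were higher in KO and 0 lower. These were Cpsf2 (2.06 relative to all probes, SE 1.02, adjusted p = 0.357) and Cpsf3 (1.5, SE 0.79), subunits of the complex that cuts the 3' end, and Ncbp1 (1.59, SE 0.79), of the cap-binding complex. Slbp differed by -2.04 (SE 1.10, adjusted p = 0.442) and was well above background on 4 KO and 7 WT arrays. The median of the list was 0.08 relative to all probes, with a range from -2.79 to 2.06, and 8 of 14 lay above the median of all probes.

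Histone variants outside the clusters are mostly encoded by polyadenylated mRNA. Of 16 listed, 13 were measured, 0 passed, and 2 were higher and 1 lower in KO at an unadjusted p under 0.05. H3f3a and H3f3b, which encode the replacement form of H3, differed by 1.21 and 1.33 relative to all probes (SE 0.70 and 0.74, adjusted p = 0.368 and 0.366). Cenpa, the H3 variant of centromeres, differed by -2.67 (SE 0.92, adjusted p = 0.341); it was well above background on 3 KO and 7 WT arrays and was kept through WT alone. The list's median was 0.21.

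Of 18 histone chaperones, 17 were measured and 0 passed, with a median of -0.08 relative to all probes. Nasp, a chaperone of H1 and of H3 with H4, differed by 1.20 (SE 0.63, adjusted p = 0.354). Asf1a, which hands H3 with H4 to other chaperones, differed by -2.71 (SE 0.85, adjusted p = 0.314) but was well above background on 1 KO and 6 WT arrays, so its KO level is mostly background. Hjurp, the chaperone of Cenpa, differed by -1.93 (SE 0.78, adjusted p = 0.372; 4 KO and 7 WT arrays).

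Of 30 genes of S phase and proliferation, 24 were measured and 0 passed, and 3 were higher and 0 lower in KO at an unadjusted p under 0.05. Their median was 0.56 relative to all probes, with a range from -2.13 to 3.26, and 15 of 24 lay above the median of all probes. The genes named next are those of smallest p and Top2a, so they leave out the low end of that range. Mki67, which marks cycling cells, differed by 3.26 (SE 1.12, adjusted p = 0.281), Pcna, the sliding clamp of DNA polymerase, by 1.21 (SE 0.62, adjusted p = 0.349) and Mcm3, of the replicative helicase, by 1.19 (SE 0.70, adjusted p = 0.368). Top2a, the topoisomerase of dividing cells, differed by -0.01 (SE 1.34). For these lists at gene level, 9.20% of genes were higher and 4.14% lower at that unadjusted level, and the median of all genes was 0.15 relative to all probes.

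Markers of other cells were also read. Macrophage markers were measured for 5 of 7 genes, with Itgam, Csf1r and Emr1 well above background on all 14 arrays. Their summed signal was 297.8 to 10946 times the 75th percentile on KO arrays and 404 to 1106 times on WT arrays. Itgam had the highest mean level, 10.5 on KO and 9.36 on WT arrays, against 3.98 and 3.29 for Csf1r. The macrophage sum therefore chiefly follows 1 gene. Relative to all probes, the macrophage markers differed by -2.58 to 1.05, and 3 of the 5 lay above the all-probe median. T cell markers were measured for 4 of 6 genes (1.71 to 17.9 and 1.62 to 7.41), erythroid markers for 3 of 5 (0.147 to 4427 and 0.0807 to 1379) and neutrophil markers for 1 of 4 (11.9 to 129 and 12 to 43.3). Mast cell and mesothelial markers were measured for 0 of 4 genes each. B-1a cell markers, 4 of 4 measured, had a median of -1.14 relative to all probes, and all 4 lay below the all-probe median. Bhlhe41, a transcription factor of B-1a cells, differed by -4.93 (SE 1.10, adjusted p = 0.182; 4 KO and 7 WT arrays) and Cd5 by -0.94 (SE 0.77, adjusted p = 0.704). The part of these cells in the histone levels was not tested.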

How the data were processed

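Total RNA was purified on micro columns and its cDNA carried Cy3, per the labels, which do not disclose the labelling protocol. Per the file headers, spot intensity was read with Agilent Feature Extraction 10.7.3.1 and positions refer to build mm9. Other deposited columns of the scanner output mark each spot as well above background, saturated or an outlier. The deposited values on the log2 scale, for which no source used here names a tool, served as an alternative; they follow the scanner values, with no centring by gene and higher values for more signal.

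From each log2 processed intensity the 75th percentile of that array's non-control spots was subtracted. Spots of a probe were averaged without those marked as outliers. Kept probes cleared background on 4 or more of 7 arrays in KO or in WT. Genotypes were compared over all 29687 kept probes with limma 3.58.1 (lmFit and eBayes, R 4.3.3, package data.table in version 1.17.8), with set as a covariate, two-sided, Benjamini-Hochberg adjustment over all kept probes and a threshold of 0.05. Values within sets and slides and the difference between sets came from models with a mean per genotype and set or slide; p-values in those are from the same limma fit. A difference relative to all probes is the fitted difference minus the median of all kept probes. It is a description with no test of its own. An SE or adjusted p printed beside it is that of the fitted difference itself. Where one genotype had only background readings, each of its arrays took the higher of its own value and its lowest signal well above background. The mean of these was set against the brighter genotype's mean, which may itself hold background readings. Genes of the other lists were read from their kept probe of highest mean level. The fitting script was tested on simulated data.

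Sequences and positions are those of the array file. Accessions of 52 of the 57 members matched RefSeq names (GRCm38.p6), used for names only. Python 3.11.15, pandas 2.3.3 and matplotlib 3.10.9 were used for sequences and figures. Every member may be named; per type, up to 4 probes per direction by smallest p and the 2 of highest mean were described, and 4 for the difference between sets. Of other lists, up to 3 genes by smallest p could be named, plus Mki67, Top2a, Slbp, H3f3b, Cd5 and Bmi1; 1 further gene of that rule is not reported here. Members, lists and alternatives were chosen with earlier results of these data known.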

Additional observations from a re-analysis of the deposited data

Results flagged for a closer look

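Of 60 groups of 7 values examined, 2 held a value that stood far from the others in its group by Dixon's criterion, which chance meets in about 1 of 20 groups. For Hist1h1a, KO set 2 replicate 2, a dim array on which the probe was not well above background, read -0.82 where the KO median was -2.53. For the second Hist1h2ak probe (P498208), WT set 2 replicate 4 read 0.39 where the WT median was -1.61.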

How the results depend on the processing

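Under all 26 alternatives tried, 14 of which left out 1 array each, limma called 0 histone probes between genotypes, and the smallest adjusted p ran from 0.103 (scaling to probes well above background on all 14 arrays) to 0.723 (without the 4 dim KO arrays). Within set 1, within set 2 and between sets the number was also 0 under each alternative that could be fitted. Replicate numbers shared by the genotypes did not pair the arrays: correlations of their deviations ran from -0.22 to 0.19 over 7 pairs, and 1 of 7 KO arrays matched best with its own number. With a replicate block, 0 histone probes were called and 8 of all probes, against 9 without it. At an unadjusted p under 0.05 the main 3 histone probes became 1 to 5. With 1 array left out they ran from 1 to 5, with 5 higher without KO set 2 replicate 4, where 16.1% of all kept probes were higher, and 1 without KO set 1 replicate 4, KO set 2 replicate 3, WT set 1 replicate 3 or 4, or WT set 2 replicate 2 or 3, where 4.79% to 7.59% of all kept probes were higher and 3.94% to 5.36% lower. All probes called numbered 134 under the first scaling, 65 without KO set 1 replicate 3 and 37 without KO set 2 replicate 4. Median differences relative to all probes ran from -0.32 to 0.71 for H1, -1.06 to 0.25 for H2A, -0.33 to 0.40 for H2B, -0.13 to 0.80 for H3 and -0.18 to 0.71 for H4, each within the spread between arrays of its main value, and were below 0 under 4, 19, 10, 2 and 1 of the 26. Of 29 probes recomputed, up to 8 turned sign relative to all probes under one setting. Hist1h4i P2174198 turned from 0.79 to -0.05 after quantile normalization and to -0.04 in the deposited values. Those settings gave nearly the same results over the array, each with 26 probes called and an all-probe median of -0.16. They are therefore not separate checks. The cause of the turn was not tested. Of the 31 kept, 19 were at background on at least 1 array, which limits what their differences can show.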
